A study of Mus musculus with 24 samples.

Results

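The 10 chemokine genes described here are Cxcl1, Cxcl2, Cxcl5, Cxcl10, Cxcl12, Cxcl16, Ccl2, Ccl5, Ccl7 and Cx3cl1, taken by gene name from the 34797 gene names of a mouse expression array. They carried 12 probes, because Cxcl10 and Cxcl12 each had a second one. All 10 were measurable on enough arrays to enter the analysis of 22968 genes. Pancreatic islets came from male C57BL6/J mice, called BL6 here, and male C57BLKs/J mice, called BLKS, both inbred and 8 weeks old when feeding began. BLKS mice are best known as a background on which obesity mutations lead to severe diabetes. Each strain gave 4 mice on chow (fat 18% of kcal), 4 on a high-fat diet (42%) and 4 on that diet plus pioglitazone (140 mg in each kg of food), a drug that activates the nuclear receptor PPAR-gamma. Feeding lasted 12 weeks by the labels of the samples but 16 weeks by the series text, and the files used here do not settle which holds. Every mouse had its own array, so p-values measure the spread between mice, and no label says which islets were isolated together.

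Chemokines are small secreted or membrane-bound proteins that guide leukocytes along a gradient through G protein-coupled receptors. Cxcl1, Cxcl2 and Cxcl5 act on Cxcr2 and draw neutrophils, Ccl2 and Ccl7 act on Ccr2 and draw monocytes, and Cxcl10 and Ccl5 draw activated T cells, Cxcl10 through Cxcr3. Islet endocrine cells and the macrophages resident in islets can both make chemokines when interleukin 1, tumour necrosis factor or interferons reach them, and many of these genes are switched on through the transcription factor NF-kappaB.

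RefSeq promoter entries (GRCm38.p6) were present for 5 of the 10 genes: Cxcl1, Cxcl2, Cxcl10, Cxcl12 and Cx3cl1. The 250 bases before each start were searched on both strands for the NF-kappaB binding motif (kappaB), and overlapping matches were merged into 1. Of 32851 promoters of the same length, 7.25% held at least 1 match. The capitals below mark the matches. Cxcl1 (chr5:90890995-90891244, plus strand), Cxcl2 (chr5:90903649-90903898, plus strand) and Cxcl10 (chr5:92348890-92349139, minus strand) held matches, and Cxcl12 (chr6:117168285-117168534, plus strand) and Cx3cl1 (chr8:94771930-94772179, plus strand) held none. All 5 are shown so that matches can be read beside the strain differences: Cxcl1, Cxcl2 and Cx3cl1 were higher in BLKS on all 3 diets, Cxcl10 with pioglitazone, and Cxcl12 on none. Whether the motif bears on these differences was not tested. The letters are those of the reference genome, and no BLKS sequence was examined. Cxcl1 and Cxcl2 could enter the analysis only by being high in BLKS, a limit given further on.
Cxcl1: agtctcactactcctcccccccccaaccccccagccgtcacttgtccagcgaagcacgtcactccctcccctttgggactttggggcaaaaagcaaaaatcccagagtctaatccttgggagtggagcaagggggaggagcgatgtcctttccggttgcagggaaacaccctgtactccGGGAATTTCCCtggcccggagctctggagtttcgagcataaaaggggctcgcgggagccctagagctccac
Cxcl2: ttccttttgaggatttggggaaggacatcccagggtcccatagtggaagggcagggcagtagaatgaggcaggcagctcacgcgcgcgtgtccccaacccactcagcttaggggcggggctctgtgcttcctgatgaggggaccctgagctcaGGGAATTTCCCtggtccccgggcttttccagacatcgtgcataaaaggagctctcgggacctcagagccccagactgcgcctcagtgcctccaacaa
Cxcl10: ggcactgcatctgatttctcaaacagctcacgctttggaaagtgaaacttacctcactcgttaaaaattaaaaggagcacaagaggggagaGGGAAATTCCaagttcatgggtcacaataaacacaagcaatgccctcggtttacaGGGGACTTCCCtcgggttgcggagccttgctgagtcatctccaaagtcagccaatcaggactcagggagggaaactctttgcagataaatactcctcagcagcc
Cxcl12: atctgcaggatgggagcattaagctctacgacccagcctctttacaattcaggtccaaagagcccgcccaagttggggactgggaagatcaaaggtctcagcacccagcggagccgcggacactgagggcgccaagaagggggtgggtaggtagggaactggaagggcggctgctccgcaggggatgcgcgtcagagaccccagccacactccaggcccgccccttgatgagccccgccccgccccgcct
Cx3cl1: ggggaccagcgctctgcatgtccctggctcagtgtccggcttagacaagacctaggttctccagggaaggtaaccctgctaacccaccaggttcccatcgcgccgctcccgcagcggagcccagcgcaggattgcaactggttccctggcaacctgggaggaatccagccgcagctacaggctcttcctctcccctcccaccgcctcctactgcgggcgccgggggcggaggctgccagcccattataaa
The match was the same 11 letters, GGGAATTTCCC, in Cxcl1 at positions -71 to -61 from the start and in Cxcl2 at positions -97 to -87. Cxcl10 held 2 matches, at -159 to -150 and at -104 to -94. It also held the interferon-response core (GAAA, any 2 letters, GAAA) at -213 to -204, which 2.98% of promoters held, and the AP-1 motif TGANTCA at -74 to -68, which 6.75% held. The TATA motif TATAAA, held by 12.4% of promoters, was found in Cx3cl1 alone among the 5, at -6 to -1. Only these exact letters were searched, and near matches were not counted. A match describes the letters and does not show that a factor binds there.

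Each array reported a background-subtracted intensity, and levels are given as log2 of it relative to the 75th percentile of the same array, so that 0 is the level of that percentile and each unit is a doubling. The percentile lay between an intensity of 245.0 and 458.7, between 50.2% and 59.3% of spots were well above background, and no spot was saturated. Islet markers were present: all 11 beta, alpha and delta cell genes examined were well above background on all 24 arrays, and Ins1 averaged 9.86 in BL6 and 9.67 in BLKS. The mean of 12 exocrine acinar markers ranged from -3.06 to 7.89 between arrays. On 8 arrays the mean of 12 lymphocyte markers stood apart, between -0.97 and 2.78 against at most -1.74 on the others: mouse 3 on chow, mouse 4 on the high-fat diet and mice 2 and 3 with pioglitazone in BL6, and mice 2 and 4 on chow, mouse 3 on the high-fat diet and mouse 1 with pioglitazone in BLKS. The arrays lay on 4 slides, of which slide 1 held BL6 arrays only and slide 3 BLKS arrays only, and slides 2 and 4 held BLKS chow with BL6 pioglitazone arrays. In this whole-islet RNA, fewer cells of a type and less RNA per cell cannot be told apart.

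The first comparison asked how the strains differ on each diet. On chow 6 of the 10 genes were higher in BLKS, where 41.6% of all genes were called and 19.6% were called higher. On the high-fat diet 7 were higher, against 50.1% of all genes called and 22.8% higher, and with pioglitazone 7, against 45.8% called and 23% higher. With the authors' median-scaled values in place of the 75th percentile, 61.8% of the genes called with pioglitazone were higher in BLKS, against 50.2% here. That scaling moved the median of all genes in this comparison from -0.044 to 0.065, a shift small beside the differences of the chemokines called. None of the 10 was called lower, against 22% of all genes on chow, 27.3% on the high-fat diet and 22.8% with pioglitazone. Averaged over the 3 diets 8 were called, against 64.9% of all genes (29.5% higher and 35.4% lower), and the median difference of the 10 was 3.21 against -0.06 over all genes. That median rests in part on BL6 readings at background. It was 2.28 when each reading not well above background was raised to the lowest well-detected signal of its array, a setting chosen after the data were seen, and 1.34 (against -0.04 over all genes) with normexp background correction and quantile normalization.

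Those counts have a limit. A gene was kept when at least 4 of 24 arrays were well above background. Cxcl2 and Cxcl5 met this through BLKS arrays alone, and Cxcl1 and Ccl7 through BLKS arrays plus 1 BL6 array, so these 4 could pass only by being high in BLKS. The same limit holds for genes of the lists further on. Il6, Cxcl3 and Mmp12 were kept through BLKS arrays alone, and Mrc1 through BL6 arrays alone. Ccr2 was kept through 9 BL6 arrays plus 1 BLKS array, so it could pass only by being high in BL6. Where no array of a group rose above background, the level there is only an upper bound and the fold is given as "at least". That fold sets the bright group's mean against the lowest well-detected signal of each dim array, or the probe's own signal where higher. Fitted log2 differences of such genes appear further on only to compare settings or slides and in the plots, and are not measured sizes.

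**Figure D1:**
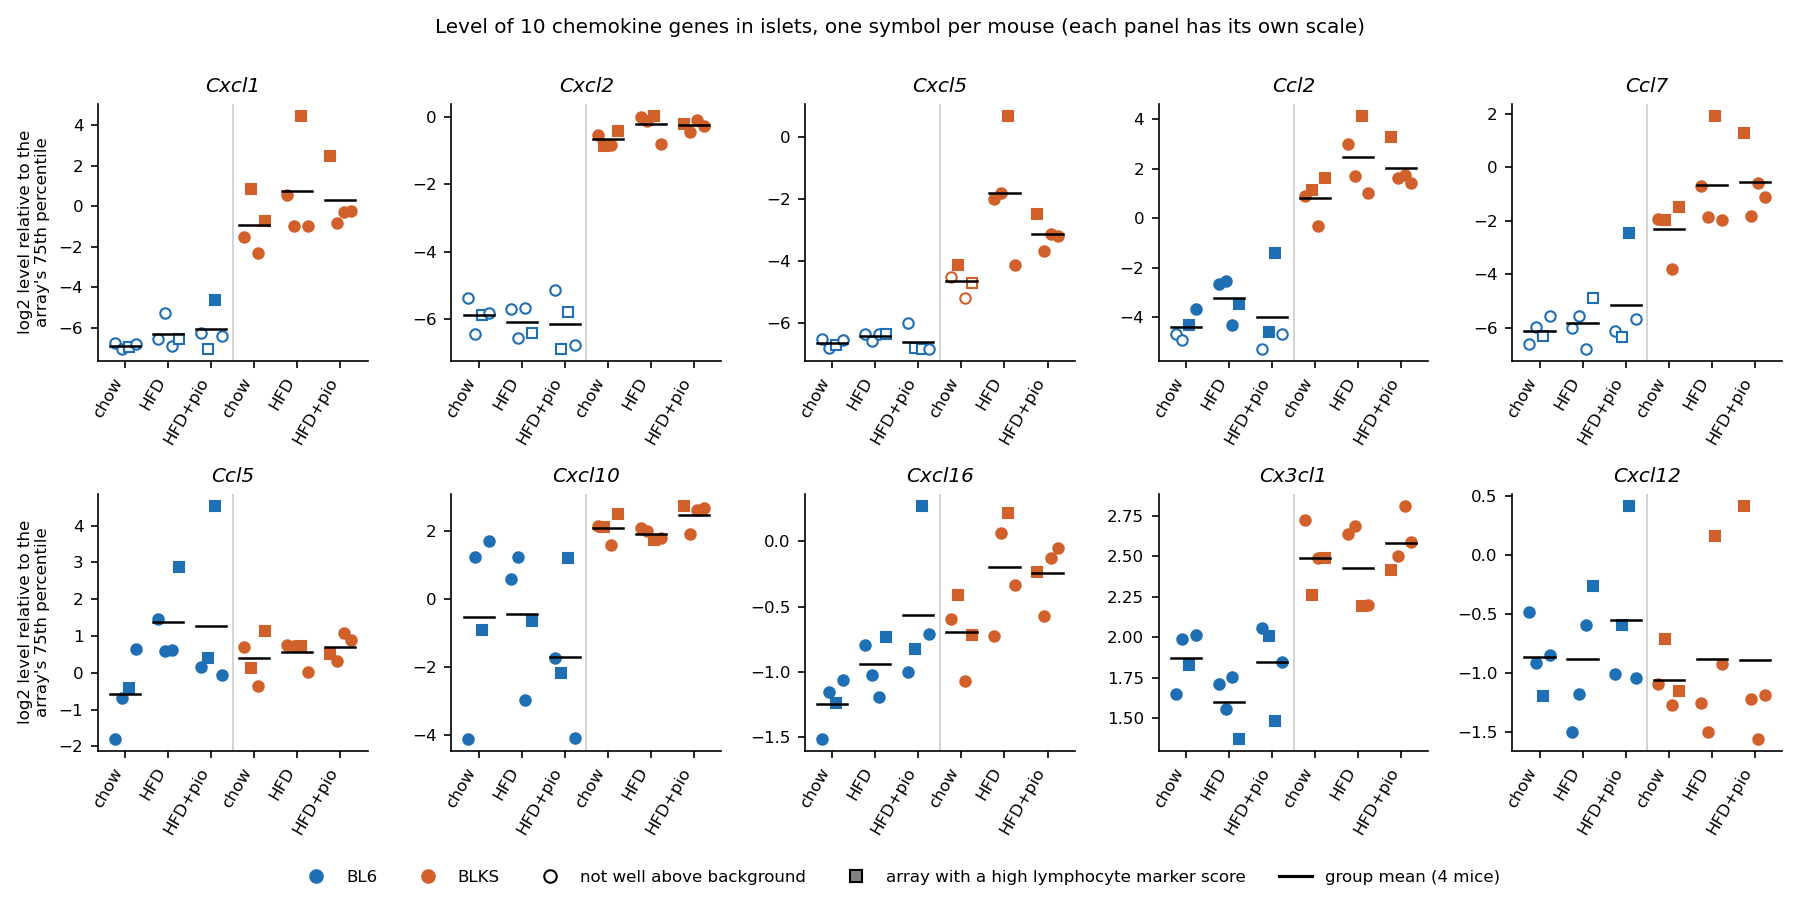
Level of each chemokine gene (log2 relative to the array's 75th percentile, vertical axis) in every mouse of the 6 groups. Blue symbols are BL6, orange BLKS, open symbols are not well above background, squares are arrays of high lymphocyte marker score and bars are means of 4 mice; for Cxcl1, Cxcl2, Cxcl5, Ccl2 and Cx3cl1 every BLKS mouse lies above every BL6 mouse.

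Among the neutrophil-drawing ligands, Cxcl1 (probe at chr5:91321845-91321904 of mm9, the build of the array files) was near or below background in BL6 and high in BLKS. In BL6 it read -6.72, -7.03, -6.93 and -6.77 on chow, -6.53, -5.28, -6.87 and -6.55 on the high-fat diet and -6.23, -7.03, -4.63 and -6.38 with pioglitazone. In BLKS it read -1.52, 0.84, -2.32 and -0.72 on chow, 0.55, -0.99, 4.46 and -0.96 on the high-fat diet and 2.48, -0.83, -0.27 and -0.26 with pioglitazone. All 12 BLKS arrays and 1 BL6 array, mouse 3 with pioglitazone, were well above background, and the strains did not overlap, as was true of 10.7% of all genes in this direction. The BLKS level was at least 13.3-fold higher on chow (adjusted p = 3.95e-05) and at least 37.0-fold higher on the high-fat diet (adjusted p = 4.02e-06). With pioglitazone, where 1 of 4 BL6 arrays was measured, the log2 difference was 6.35 ± 0.96 (SE, adjusted p = 1.64e-05), and without that array it was bounded at 31.9-fold. The 2 highest BLKS values, 4.46 and 2.48, came from arrays of high lymphocyte score. Without BLKS mouse 3 the high-fat bound was 15.8-fold, and without BLKS mouse 2 the chow bound was 8.84-fold. Without BLKS mouse 1 the pioglitazone difference was 5.61. All 3 remained past the threshold.

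Cxcl2 (chr5:91334534-91334593, mm9), the close relative of Cxcl1, was well above background on all 12 BLKS arrays and on no BL6 array. The 12 BL6 readings ran from -6.88 to -5.13 with a median of -5.85. In BLKS it read -0.54, -0.88, -0.83 and -0.42 on chow, -0.02, -0.12, 0.03 and -0.80 on the high-fat diet and -0.21, -0.47, -0.10 and -0.27 with pioglitazone. The BLKS mice varied little, and the arrays of high lymphocyte score did not stand apart. On the high-fat diet 3 of 4 BLKS mice lay above all 4 chow mice, a difference of 0.44 ± 0.32 that did not pass (adjusted p = 0.75). Over the 3 diets the BLKS level was at least 19.8-fold higher (adjusted p = 5.13e-16), with at least 15.9-fold on chow, 18.6-fold on the high-fat diet and 26.4-fold with pioglitazone.

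Cxcl5 (chr5:91190490-91190549, mm9), a ligand made largely by epithelial cells, was not well above background on any BL6 array and there read between -6.85 and -6.01. In BLKS it read -4.53, -4.14, -5.21 and -4.74 on chow, -2.00, -1.83, 0.68 and -4.14 on the high-fat diet and -2.48, -3.71, -3.13 and -3.20 with pioglitazone. Only 1 of the 4 BLKS chow arrays was well above background, while all 8 of the other BLKS arrays were. The strain difference was therefore bounded at 1.01-fold on chow (adjusted p = 0.0089), 6.16-fold on the high-fat diet (adjusted p = 1.84e-06) and 3.62-fold with pioglitazone (adjusted p = 5.42e-05). The high-fat bound was 3.46-fold without BLKS mouse 3 and 10.5-fold without BLKS mouse 4.

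Of the monocyte-drawing ligands, Ccl2 (chr11:81850650-81850709, mm9) was detected in both strains. In BL6 it read -4.67, -4.90, -4.30 and -3.65 on chow, -2.65, -2.54, -4.32 and -3.46 on the high-fat diet and -5.29, -4.61, -1.42 and -4.69 with pioglitazone. In BLKS it read 0.87, 1.14, -0.33 and 1.62 on chow, 2.97, 1.70, 4.13 and 1.01 on the high-fat diet and 3.28, 1.60, 1.75 and 1.40 with pioglitazone. The lowest BLKS array lay above the highest BL6 array, and 8 of 12 BL6 arrays were well above background. The log2 difference was 5.21 ± 0.75 on chow (37.1-fold, adjusted p = 9.50e-06), 5.70 ± 0.75 on the high-fat diet (51.9-fold, adjusted p = 2.66e-06) and 6.01 ± 0.75 with pioglitazone (64.4-fold, adjusted p = 1.51e-06). Only 2 of 4 BL6 arrays were well above background on chow and 2 of 4 with pioglitazone, and with normexp correction and quantile normalization the folds were 9.03, 19.9 and 15.8. Without BL6 mouse 3 the pioglitazone difference was 6.87. The Ccl2 probe was printed 10 times on each array, which gives a technical error that no other member has. The SD among those spots had a median of 0.31 on BL6 arrays and 0.049 on BLKS arrays, against an SD of 1.16 and 1.19 between the arrays of a strain, which pools the 3 diets and every step from mouse to array.

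Ccl7 (chr11:81860656-81860715, mm9), whose gene neighbours Ccl2, was well above background on all 12 BLKS arrays and on 1 BL6 array. The BL6 readings ran from -6.79 to -4.90 except for -2.45 in mouse 3 with pioglitazone. In BLKS it read -1.92, -1.97, -3.81 and -1.50 on chow, -0.70, -1.84, 1.93 and -1.97 on the high-fat diet and 1.29, -1.81, -0.58 and -1.11 with pioglitazone. The strains overlapped through that BL6 mouse and BLKS chow mouse 3. The BLKS level was at least 5.15-fold higher on chow (adjusted p = 0.00143) and at least 13.9-fold higher on the high-fat diet (adjusted p = 5.87e-05), and with pioglitazone, where 1 of 4 BL6 arrays was measured, the log2 difference was 4.59 ± 0.88 (adjusted p = 2.25e-04). Without BLKS high-fat mouse 3 the high-fat bound was 7.67-fold. Without BL6 mouse 3 the pioglitazone difference was 5.49, and without BLKS mouse 1 it was 3.98.

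Cxcl10, an interferon-induced ligand of Cxcr3, was well above background on all 24 arrays and varied far more between BL6 mice than between BLKS mice. In BL6 it read -4.11, 1.23, -0.91 and 1.69 on chow, 0.59, 1.24, -2.98 and -0.65 on the high-fat diet and -1.74, -2.19, 1.19 and -4.07 with pioglitazone. All 12 BLKS values lay between 1.60 and 2.74. The largest SD in a group of 4 was 2.64 in BL6 and 0.39 in BLKS, and 1 BL6 value, 1.69, lay above the lowest BLKS value. The log2 difference was 2.61 ± 1.08 on chow (adjusted p = 0.058) and 2.36 ± 1.08 on the high-fat diet (adjusted p = 0.076), which did not pass. The chow difference passed without BL6 mouse 2 (3.20, adjusted p = 0.034) or BL6 mouse 4 (3.35, adjusted p = 0.022) and fell to 1.42 (adjusted p = 0.26) without BL6 mouse 1. The high-fat difference passed without BL6 mouse 2 (2.92, adjusted p = 0.042) and fell to 1.51 (adjusted p = 0.27) without BL6 mouse 3. With pioglitazone it was 4.18 ± 1.08 (adjusted p = 0.0033), and it moved to 5.15 without BL6 mouse 3 and to 3.39 without BL6 mouse 4. A second Cxcl10 probe, annotated to a cDNA clone and not well above background on any BL6 array, passed on all 3 diets (largest adjusted p over probes = 2.50e-05), with a bound of 1.03-fold on the high-fat diet and 1.88-fold with pioglitazone and no fold on chow.

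Ccl5, a T-cell product, did not pass between strains. Its log2 difference over the 3 diets was -0.14 ± 0.44 (adjusted p = 0.79, 95% interval -1.06 to 0.77), an interval that reaches about as far down as up. BL6 mice ranged from -1.80 to 4.54 and BLKS mice from -0.37 to 1.15. The 2 highest readings of all, 4.54 and 2.88, were BL6 arrays of high lymphocyte score. With the mean macrophage marker level as a covariate the difference turned to 0.95 and passed (adjusted p = 0.032).

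The 2 chemokines that are made as transmembrane proteins and shed from the cell surface were both higher in BLKS by modest amounts. Cx3cl1, fractalkine, read between 1.37 and 2.06 in BL6 and between 2.19 and 2.81 in BLKS. The strains did not overlap, and the log2 difference was 0.62 ± 0.15 on chow (adjusted p = 0.00174), 0.83 ± 0.15 on the high-fat diet (adjusted p = 8.87e-05) and 0.73 ± 0.15 with pioglitazone (adjusted p = 3.62e-04). Its spread between mice was the smallest of the 10, with an SD of at most 0.27 in any group. Cxcl16, a ligand of Cxcr6, read between -1.51 and 0.27 in BL6 and between -1.07 and 0.22 in BLKS, with wide overlap. Its difference was 0.74 ± 0.24 on the high-fat diet (adjusted p = 0.0127), which became 0.61 (adjusted p = 0.052) without BLKS mouse 3. On chow it was 0.54 ± 0.24 (adjusted p = 0.071), and it passed without BLKS mouse 3 on chow (0.67, adjusted p = 0.042). With pioglitazone it was 0.32 ± 0.24 (adjusted p = 0.28), and it passed without BL6 mouse 3 (0.60, adjusted p = 0.018).

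Cxcl12, the ligand of Cxcr4 that stromal and endothelial cells make constitutively, did not pass between strains. Its difference over the 3 diets was -0.17 ± 0.24 (adjusted p = 0.54, 95% interval -0.67 to 0.32), and with the macrophage covariate it was 0.44 (adjusted p = 0.0498). The second probe, of another transcript, gave 0.27 ± 0.37 (adjusted p over probes = 0.54). The 3 highest readings, 0.42, 0.41 and 0.16, were BL6 pioglitazone mouse 3, BLKS pioglitazone mouse 1 and BLKS high-fat mouse 3, all of high lymphocyte score.

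**Figure D2:**
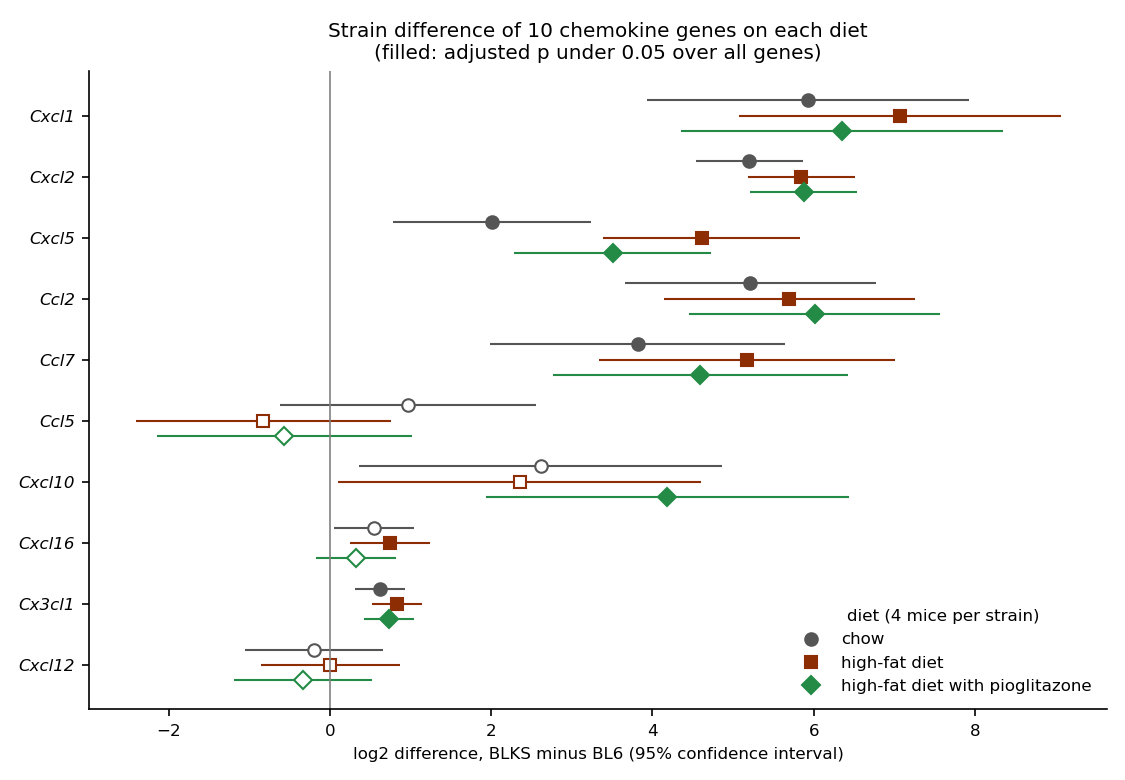
Log2 difference of BLKS minus BL6 (horizontal axis, with its 95% confidence interval) for the 10 genes on each diet, 4 mice per strain. Filled symbols passed an adjusted p of 0.05 over all 22968 genes; Cxcl1, Cxcl2, Cxcl5, Ccl2, Ccl7 and Cx3cl1 passed on all 3 diets, and Ccl5 and Cxcl12 on none; the symbols of Cxcl1, Cxcl2, Cxcl5 and Ccl7 are fitted values against BL6 readings mostly at background.

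In the order of the 6 group means, all 3 BLKS groups stood above all 3 BL6 groups for Cxcl1, Cxcl2, Cxcl5, Cxcl10, Ccl2, Ccl7 and Cx3cl1. The share of all genes with this order was not counted, so the order is not read as a trait of chemokines. Over the 3 diets 64.9% of all genes were called between strains in either direction, which is another measure. Cxcl1, Cxcl2, Cxcl5 and Ccl7 were kept only by being high in BLKS. For Cxcl1, Cxcl2, Cxcl5 and Ccl2 the BLKS order was chow, then pioglitazone, then high-fat diet, and no step between neighbours tested within a strain passed. The size of the folds of dim genes depended on the background correction. With normexp correction and quantile normalization the difference over the 3 diets fell to 2.98 for Cxcl1, 2.35 for Cxcl2, 0.90 for Cxcl5, 1.77 for Ccl7 and 3.83 for Ccl2, all still past the threshold, while Cxcl5 on chow (0.30, adjusted p = 0.52) and with pioglitazone (0.77, adjusted p = 0.072) and Ccl7 on chow (1.09, adjusted p = 0.10) no longer passed. When the 8 arrays of high lymphocyte score were left out, differences over the 3 diets were 5.51 for Cxcl1, 5.50 for Cxcl2, 2.88 for Cxcl5, 5.44 for Ccl2, 4.17 for Ccl7, 3.30 for Cxcl10, 0.56 for Cxcl16 and 0.75 for Cx3cl1, and all 8 passed.

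Strain and slide are largely tied, but slide 2 held 3 BLKS chow and 3 BL6 pioglitazone arrays, a comparison that crosses strain with diet and was chosen after the slide layout was known. On that slide BLKS was higher by 5.49 for Cxcl1, 5.31 for Cxcl2, 2.10 for Cxcl5, 4.98 for Ccl2, 3.17 for Ccl7, 3.16 for Cxcl10 and 0.64 for Cx3cl1. Cxcl12 (-0.59), Cxcl16 (-0.06) and Ccl5 (-1.04) were not higher in BLKS there. Differences of all genes on that slide alone were not examined. Between all BLKS chow and all BL6 pioglitazone arrays, 43.3% of all genes were called. Slide 4, with 1 array of each group, gave 4.07 for Cxcl1, 5.92 for Cxcl2, 1.64 for Cxcl5, 4.36 for Ccl2, 1.86 for Ccl7, 5.67 for Cxcl10 and 0.64 for Cx3cl1, and -0.24 for Cxcl12, -0.36 for Cxcl16 and -0.31 for Ccl5. This contrast mixes strain with diet and drug, and for Cxcl1, Cxcl2, Cxcl5 and Ccl7 its BL6 side lay mostly at background. Whether islets of the strains were isolated in separate sessions is not given in the labels, and such a difference cannot be told apart from strain.

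The second comparison asked what the high-fat diet did within each strain. All BL6 chow and high-fat arrays lay on slide 1, but BLKS chow arrays lay on slides 2 and 4 and BLKS high-fat arrays on slide 3, so diet in BLKS cannot be told apart from slide. None of the 10 passed in BL6, where 0.0435% of all genes were called, and none in BLKS, where 0.074% were called. At an unadjusted p under 0.05 there was 1 gene in BL6 and 3 in BLKS. The largest difference was that of Cxcl5 in BLKS, 2.83 ± 0.59 (95% interval 1.61 to 4.05, adjusted p = 0.086), and 3 of 4 high-fat mice lay above all 4 chow mice. The exception was mouse 4 at -4.14, level with the highest chow mouse, and without that mouse the difference was 3.60 and passed (adjusted p = 0.0037). It also passed with the macrophage covariate (2.85, adjusted p = 0.0499). These were the only 2 of 20 alternatives in which the difference passed, and in the other 18 it did not. Slide as a random block gave an adjusted p of 0.071. Dropping the 8 arrays set apart by their lymphocyte markers gave 2.21 (adjusted p = 0.27). Normexp correction with quantile normalization gave 1.33 (adjusted p = 0.090). Since most BLKS chow readings of Cxcl5 were not well above background, the chow level is uncertain. In BL6 Cxcl5 was at background on both diets, and the difference between strains in the high-fat response was 2.60 ± 0.83 (adjusted p = 0.35).

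The other high-fat differences were smaller or more scattered. In BLKS they were 1.69 ± 0.96 for Cxcl1, 1.65 ± 0.88 for Ccl7, 1.63 ± 0.75 for Ccl2, 0.50 ± 0.24 for Cxcl16 and 0.44 ± 0.32 for Cxcl2 (smallest adjusted p = 0.52). In each of Cxcl1, Ccl2 and Ccl7 the highest of the 4 was mouse 3, of high lymphocyte score. The same mouse was also the highest of the 4 for Cxcl5, at 0.68. In BL6 the largest was Ccl5, which read -1.80, -0.68, -0.41 and 0.64 on chow and 1.46, 0.58, 0.63 and 2.88 on the high-fat diet, a difference of 1.95 ± 0.76 (adjusted p = 0.73) with overlap between the groups. Ccl2 in BL6 differed by 1.14 ± 0.75 (adjusted p = 0.97). The median over the 10 was 0.26 in BL6 and 0.47 in BLKS, against -0.01 and -0.02 over all genes. The strain difference in the high-fat response passed for none of the 10 and for 0% of all genes.

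Pioglitazone on top of the high-fat diet likewise gave no call among the 10 in BL6, with 0.17% of all genes called, or in BLKS, with 0.00435%. The BLKS arrays of this comparison shared slide 3, while BL6 high-fat arrays lay on slide 1 and BL6 pioglitazone arrays on slides 2 and 4, so pioglitazone in BL6 cannot be told apart from slide. No BL6 gene and 1 BLKS gene had an unadjusted p under 0.05. That gene was Cxcl5, lower by 1.31 ± 0.59 (95% interval -2.53 to -0.09 for pioglitazone minus high-fat diet alone, adjusted p = 0.999). Its pioglitazone readings lay within the range of the high-fat ones. The widest intervals were those of Cxcl10, -3.50 to 1.00 in BL6 and -1.68 to 2.83 in BLKS, and the narrowest those of Cx3cl1, -0.05 to 0.56 in BL6 and -0.15 to 0.46 in BLKS. The strain difference in the pioglitazone response passed for none of the 10 and for 0.0131% of all genes.

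**Figure D3:**
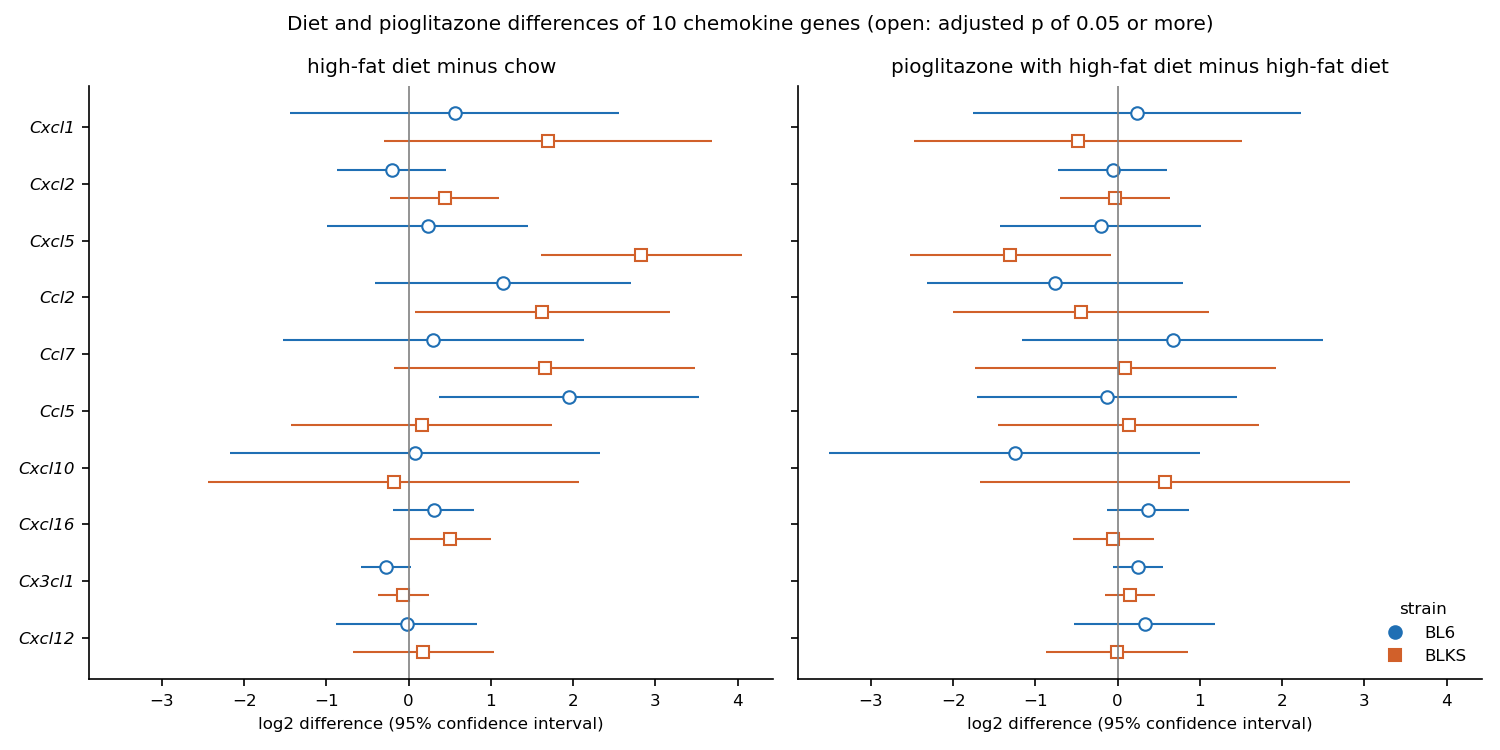
Log2 difference (horizontal axis, with its 95% confidence interval) between high-fat diet and chow, left, and between pioglitazone with high-fat diet and high-fat diet alone, right, for the 10 genes in BL6 (blue circles) and BLKS (orange squares). All symbols are open because none passed an adjusted p of 0.05; Cxcl5 in BLKS has the largest high-fat difference, 2.83.

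The 10 genes fell into patterns across mice. With the group means removed, Ccl2 and Ccl7 went together over the 24 arrays (r = 0.90), as did Cxcl1 with Ccl7 (r = 0.84) and Cxcl1 with Ccl2 (r = 0.77), while Cx3cl1 ran opposite to Cxcl12 (r = -0.69). These values describe the arrays, which share a normalization and in part a high lymphocyte score. BLKS high-fat mouse 3 and BLKS pioglitazone mouse 1, the 2 BLKS arrays with the highest lymphocyte score, were the 2 highest BLKS arrays for Cxcl1, Ccl2, Ccl7 and Cxcl12. BL6 pioglitazone mouse 3, with the highest score of all, was the highest BL6 array for those 4 genes and for Cxcl16 and Ccl5. Cxcl2 showed no such pattern. The macrophage marker mean was also highest on BL6 pioglitazone mouse 3 (1.84), and in BLKS on pioglitazone mouse 1 (0.81). With group means removed, r with the macrophage mean was 0.83 for Ccl7, 0.73 for Ccl2, 0.75 for Ccl5 and 0.74 for Cxcl16. With the lymphocyte mean it was 0.74, 0.62, 0.60 and 0.61. For Cxcl1 the values were 0.57 and 0.62, and for Cxcl12 0.78 and 0.78. Which cells this reflects was not tested.

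**Figure D4:**
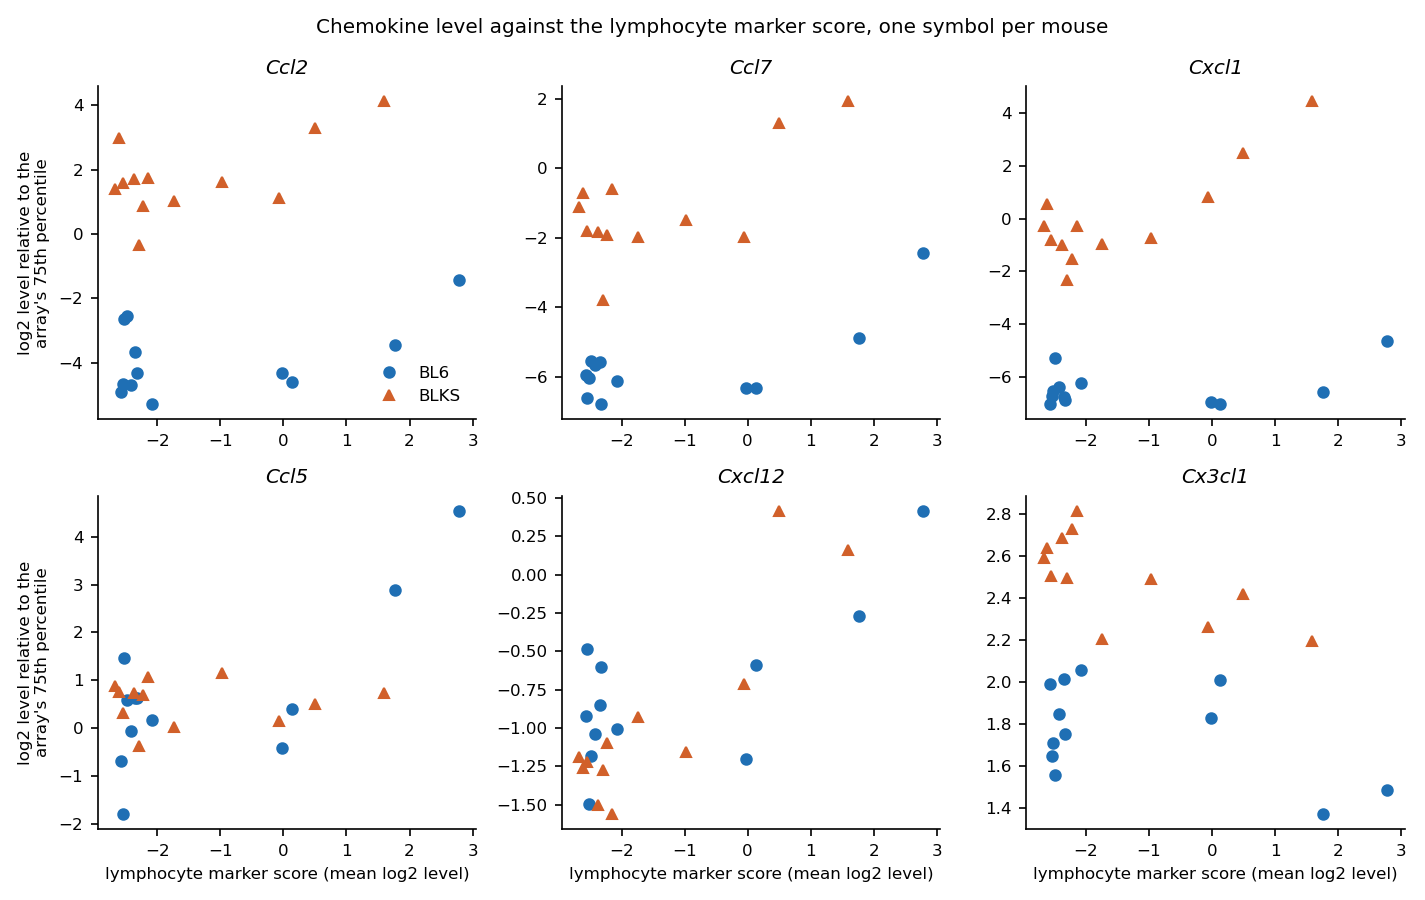
Level of 6 chemokine genes (log2 relative to the array's 75th percentile, vertical axis) against the mean log2 level of the lymphocyte markers (horizontal axis) in 24 mice, BL6 as circles and BLKS as triangles. The strains stay apart in Ccl2, Cxcl1 and Cx3cl1 at every score, and the highest readings of Ccl5 and Cxcl12 come from arrays of high score.

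For each of the 10, the genes whose log2 levels ran most nearly parallel over the 24 arrays were found by Pearson r. Because the strains form separate clusters, most of these r values reflect the strain difference, and r with the group means removed is given second. Cxcl1 was nearest to Rnf19b (0.97 and 0.81), Ccl2 and Ptgs2. Ptgs2 is the inducible cyclooxygenase. Ccl2 was nearest to Cxcl1 (0.97 and 0.77), the cytokine gene Il6 and Rnf19b, and Ccl7 to Cxcl1 (0.97 and 0.84), Ccl2 and Slc15a3. Cxcl2 was nearest to Apol8 (0.99 and 0.51), the phosphatase gene Dusp1 and Arrdc4. Cxcl5 was nearest to Cxcl1 (0.93 and 0.75) and also near Ppan. Cxcl10 was nearest to the interferon-induced genes Mx1 (0.87 and 0.82) and Isg15, and then to Icam4. Ccl5 was nearest to Psmb9 (0.85 and 0.89), B2m and Psmb8, genes of antigen presentation by MHC class I. Cxcl16 was nearest to the adhesion molecule gene Vcam1 (0.89 and 0.84), Gbp11 and Pfkfb3. Cxcl12 was nearest to Evi2a (0.86 and 0.86), Flt3 and Treml2, and Cx3cl1 to Btbd17 (0.94 and 0.73), Pvrl2 and Slc7a5.

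Other genes of the chemokine system were examined over the 3 diets, where 64.9% of all genes were called (29.5% higher and 35.4% lower). Of 28 further chemokines 26 had a probe and 19 were measurable, of which 7 were called higher and 5 lower in BLKS (median -0.31, against -0.06 over all genes), a share close to that of all genes. Cxcl3, another neutrophil-drawing ligand of the Cxcl1 type, was not well above background on any BL6 array and was at least 1.95-fold higher in BLKS. Ccl3 and Ccl4, ligands made by macrophages and T cells, were higher by 2.60 ± 0.19 and 2.56 ± 0.21, and Ccl1, the ligand of Ccr8, by 1.13 ± 0.11. Ccl28 and Ccl27a, epithelial ligands of Ccr10, were lower (-2.97 ± 0.19 and -1.07 ± 0.07). Ccl6 was not among those 6 of smallest p but was also lower (-2.15 ± 0.34); it is named after its values were seen.

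Of 23 receptors 16 were measurable, with 4 called higher and 3 lower, a smaller share than that of all genes. Cx3cr1, the receptor for Cx3cl1 on macrophages, was lower in BLKS (-2.97 ± 0.14), opposite to its ligand. Ccr2, the receptor for Ccl2 and Ccl7, was also lower, with 9 of 12 BL6 arrays and 1 of 12 BLKS arrays well above background. It could be kept only by being high in BL6. Its fitted difference, -2.77 ± 0.36, was set against BLKS readings mostly at background and is not a measured size. Ccr8 was higher by 3.53 ± 0.17. A pair of atypical receptors that bind chemokines without G protein signalling were higher as well: Ackr3, named Cxcr7 on the array and a receptor for Cxcl12, by 1.79 ± 0.13, and Ackr2, named Ccbp2, by 1.54 ± 0.28. Cxcr2, the receptor for Cxcl1, Cxcl2 and Cxcl5, differed by 0.61 ± 0.56 (adjusted p = 0.35), with 1 BL6 and 5 BLKS arrays well above background. Cxcr3 differed by -2.07 ± 0.90 (adjusted p = 0.051) and Cxcr4 by -0.10 ± 0.40 (adjusted p = 0.83).

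Genes known to induce chemokine transcription or to limit it were mostly higher in BLKS: of 18, 17 were measurable, 14 were called higher and 2 lower (median 1.39), against 29.5% and 35.4% of all genes and their median of -0.06. Il6 was not well above background on any BL6 array and was at least 38.1-fold higher in BLKS. Rela and Nfkb2, subunits of NF-kappaB, were higher by 1.64 ± 0.05 and 2.44 ± 0.19, while the subunit gene Relb was lower (-0.28 ± 0.10, adjusted p = 0.0186). Nfkbia and Nfkbiz, genes of the IkappaB family that regulates NF-kappaB, were higher by 2.12 ± 0.14 and 1.39 ± 0.09. Zfp36, which destabilises cytokine mRNA, was higher by 2.73 ± 0.20. The mean of the 17 lay between -0.73 and 0.44 on BL6 arrays and between 1.08 and 1.45 on BLKS arrays. Some of the 17, Il6 among them, could be kept only by being high in BLKS, and the count and the mean include them. Among 5 measurable enzymes that cut or shed chemokines, Mmp12 was at least 2.49-fold higher (not well above background on any BL6 array) and Dpp4, which truncates Cxcl10 and Cxcl12, lower (-1.60 ± 0.06), with 2 called in each direction. No gene of these 4 lists was called in any of the 4 diet or pioglitazone comparisons. At most 0.17% of all genes were called in any of them.

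**Figure D5:**
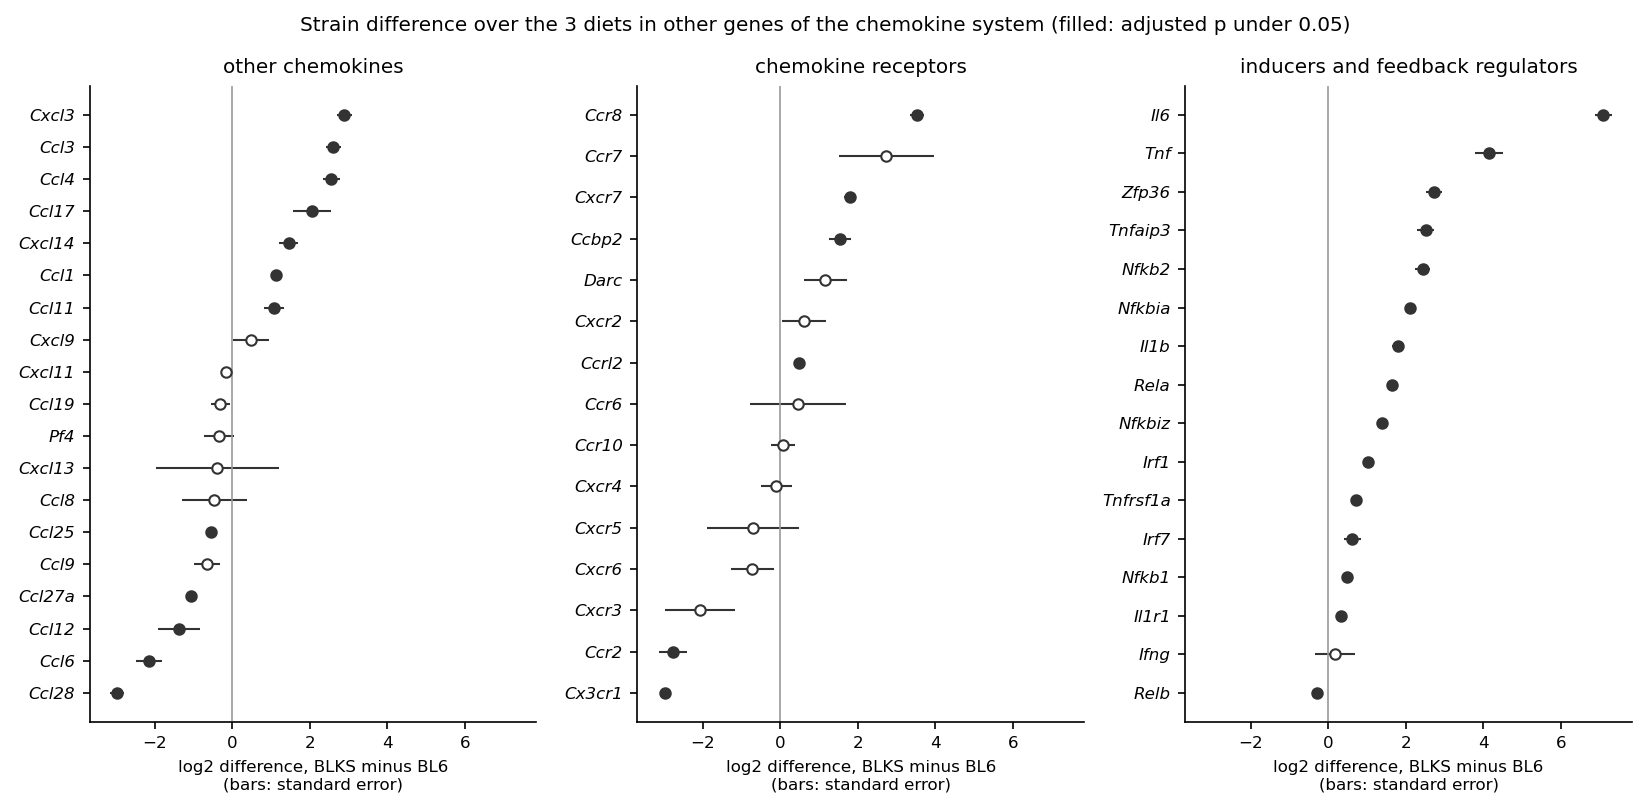
Log2 difference of BLKS minus BL6 over the 3 diets (horizontal axis, bars are standard errors, 12 mice per strain) for 19 other chemokines, 15 receptors and 16 inducers and feedback regulators. Filled symbols passed an adjusted p of 0.05. Of the 16 regulators drawn, 14 lie to the right and passed, while chemokines and receptors lie on both sides. Il6 and Cxcl3 are drawn at fitted values against BL6 readings not well above background. Ccr2 is drawn at a fitted value against BLKS readings mostly at background.

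Markers of the cells that make or follow chemokines were counted over the 3 diets against the same 64.9% of all genes called (29.5% higher and 35.4% lower), a share that several of the lists did not exceed. Of 12 macrophage markers 9 were lower in BLKS, among them Mrc1 (at least 3.25-fold lower, with no BLKS array well above background) and C1qc (-1.28 ± 0.17), and 1, Cd14, was higher (3.40 ± 0.10). The macrophage mean ranged from 0.23 to 1.84 in BL6 and from 0.02 to 0.81 in BLKS. With that mean as a covariate the strain differences of Cxcl1, Cxcl2, Ccl2 and Ccl7 were 7.49, 5.71, 6.69 and 5.93, and all passed. Most of these markers themselves differed between strains, so the fit cannot separate macrophage content from strain. BL6 readings of Cxcl1, Cxcl2 and Ccl7 lay mostly at background, so their values are not measured sizes. The part of macrophages in the chemokine differences was not tested. Of 8 ductal markers 6 were higher in BLKS, among them Krt19 (4.02 ± 0.39) and Spp1 (2.77 ± 0.24), and Krt7 (-0.06) and Cftr (-0.05) did not pass. Among the 6, Sox9 and Muc1 were well above background on only 1 and 3 BL6 arrays. They could be kept only by being high in BLKS. The ductal mean ranged from -2.69 to -1.20 in BL6 and from -0.79 to 0.05 in BLKS, without overlap, and its part in the chemokine differences was not tested. Of 8 neutrophil markers 4 were measurable, with none higher and 2 lower in BLKS, and S100a8, Retnlg, Ngp and Mpo were too dim to be kept. Of 12 measurable lymphocyte markers none was higher and 2 were lower, of 8 endothelial markers 3 were higher and 2 lower, of 8 stellate and fibroblast markers 1 was lower, and of the 11 endocrine markers 5 were lower, the largest being Irx2 (-1.31 ± 0.15). None of the 12 acinar markers was called, nor was the single measurable adipocyte marker, Retn (-0.27 ± 0.37).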

How the data were processed

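RNA of islets from 24 mice was amplified, labelled with Cy3 and hybridised to 1-colour Agilent arrays, per the labels' protocols. Per the file headers, Agilent Feature Extraction 10.7.3.1 gave each spot the deposited processed intensity, with background subtracted and no scaling between arrays, along with the mean and local background intensity. The authors' deposited value table holds a ratio, which the values show to be the processed intensity over the array's median, with every column median at 1; 0 of its columns belonged to no sample. Its scale and centring are thus known from the values, and 1-colour values have no dye direction.

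From these, log2 of the processed intensity minus the array's 75th percentile was computed. Control spots and flagged outlier spots were left out (55 of 55681 probes were lost this way), spots of a probe were averaged, and a probe was kept if well above background on at least 4 of 24 arrays (32750 probes). The brightest kept probe stood for its gene. One mean per group was fitted with limma 3.58.1 (lmFit, eBayes; R 4.3.3), with 18 residual degrees of freedom, and p-values were adjusted by Benjamini-Hochberg over 22968 genes at a threshold of 0.05. Errors are SE unless called SD. In data simulated for the high-fat comparison in BLKS on 22968 genes, a log2 change of 1 was called in 70% of 50 genes, of 2 in 92%, and 12 of 22768 unchanged genes were called. The changed genes were drawn at random, each with its own spread, and were more than the real comparison called. Their rates therefore do not apply to scattered members such as Cxcl1 and Cxcl10, whose SE in that comparison was 0.96 and 1.08. The number of arrays limits the precision of every value.

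Groups were taken from sample titles. The members, the gene lists, the tests and the naming rule were chosen with earlier results of these data known. The rule names all members, up to 6 genes of smallest p per list, and the 3 genes most like each member. Clone and predicted-gene names were left out. Cxcr2, Cxcr3 and Cxcr4, as receptors of members, and Krt7, Cftr, Ccl6 and Relb were named beside the rule. Alternatives were other background corrections, normalizations and filters, averaging the probes of each gene, the authors' table, slide and mouse number as blocks, only the groups compared, marker means as covariates, and leaving out arrays. The comparison within slides was chosen after seeing the data. Of the 12 member probes, 11 matched a RefSeq accession, all under the same symbol. Promoters are RefSeq's (GRCm38.p6), searched with Python 3.11.15 (pandas 2.3.3, numpy 2.4.6); figures used matplotlib 3.10.9. Probe positions are those of the array files, on mm9. Exon and UTR positions were not analysed here. A few genes counted in the lists or met by the naming rule are not reported here by name or drawn.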

Additional observations from a re-analysis of the deposited data

Results flagged for a closer look

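In 5 of the 60 sets of 4 mice examined (10 genes in 6 groups), 1 mouse lay far from the other 3 by Dixon's test, which chance alone would give in about 1 of 20 sets. Ccl5 read 4.54 in BL6 pioglitazone mouse 3, against -0.06 to 0.40 in the other three, and that array had the highest lymphocyte marker mean, 2.78. The macrophage marker mean of that array, 1.84, was the highest as well. Ccl5 read 0.0173 in BLKS high-fat mouse 4, against 0.73 to 0.76. Cxcl10 read 1.90 in BLKS pioglitazone mouse 2, against 2.60 to 2.74. Cxcl5 read -6.60 in BL6 high-fat mouse 2, against -6.39 to -6.36, and -6.01 in BL6 pioglitazone mouse 1, against -6.85 to -6.84. These readings of Cxcl5 were not well above background.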

How the results depend on the processing

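For the 28 gene and comparison pairs called among the 10 chemokines, 684 of 688 alternatives kept the direction and the call, 4 lost the call and 0 reversed. The pairs include those of Cxcl1, Cxcl2, Cxcl5 and Ccl7, which could be kept only by being high in BLKS. They also include the mean of the 3 diets beside each diet. Many alternatives leave out only 1 array, so the tally is not independent support for the calls. When a probe had to be well above background on each of the 24 arrays, 5 of the 10 genes remained measurable, by the construction of that filter. Of these 5, 2 were called on chow, 2 on the high-fat diet, 2 with pioglitazone and 3 over the 3 diets. Under the same filter 45.1%, 53.8%, 48.9% and 68.3% of all genes were called, so these 5 were called no more often than genes in general. In the high-fat comparison in BLKS the count rose from 0 to 1, Cxcl5, with the macrophage mean as a covariate and without BLKS high-fat mouse 4, and leaving out each mouse in turn gave 0 to 1; the cause was not tested. Cxcl10 on chow and on the high-fat diet, and Cxcl16 on chow, passed under some alternatives, Cxcl10 with adjusted p from 0.0056 upwards when its 2 probes were averaged. Among the 63 pairs with an unadjusted p of 0.05 or more, the sign turned in 130 of 1497 alternatives, and 5 passed, 4 of them with the macrophage covariate. Counts over all genes moved by more than 1.5 times in the diet comparisons. The high-fat diet called 10 genes in BL6 (0 to 16 under other settings, 4 to 19 without 1 mouse) and 17 in BLKS (0 to 66, and 2 to 14). Pioglitazone called 39 in BL6 (0 to 68, and 18 to 63) and 1 in BLKS (0 to 23, and 1 to 48). The strain difference in the high-fat response called 0 (up to 82, with the macrophage covariate) and that in the pioglitazone response 3 (0 to 13, and 0 to 22). Slide as a fixed block could be fitted only for the high-fat diet in BL6 and pioglitazone in BLKS; as a random block its correlation was -0.01166. Mouse numbers share only a number: same-numbered arrays had a mean correlation of 0.0058 after removing group means, and 6 of 24 arrays matched their own number best. With the replicate block the chemokines called were 0 in each diet comparison, 6 on chow, 7 on the high-fat diet, 7 with pioglitazone and 8 over the diets, while the genes called for pioglitazone in BLKS went from 1 to 23. Levels of Cxcl1, Cxcl2, Cxcl5 and Ccl7 in BL6 are limited by signal over background.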
